A study of Mus musculus with 11 samples.

Results

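The small leucine-rich proteoglycans are secreted matrix proteins, and 8 of their genes (Dcn, Bgn, Lum, Fmod, Ogn, Prelp, Aspn and Omd) were examined in RPE/choroid, the retinal pigment epithelium with its underlying vascular stroma. The genes were chosen by name, and all 8 were among the 14602 genes of the deposited count table. The libraries came from C57BL/6J mice collected at 12 months of age. The laser treated group (5 libraries, L1 to L5) had been given nanosecond laser (2RT) when 9 months old, and the naïve control group (6 libraries, C1 to C6) was age-matched and untreated. Laser was applied to 1 eye per animal and the neural retina was removed before lysis, per the study's methods, but choroid and RPE were not separated. The sources used here do not say whether tissue of several eyes was pooled in a library, so the p-values below measure only the spread between these libraries.

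Small leucine-rich proteoglycans share a curved core of leucine-rich repeats that binds fibrillar collagen and sets the width and spacing of its fibrils. Many carry chondroitin or dermatan sulfate chains (decorin and biglycan) or keratan sulfate chains (lumican, fibromodulin and osteomodulin), and several also hold growth factors or bind cell surface receptors. In the outer eye they are made mainly by stromal fibroblasts of the choroid, sclera and cornea rather than by the epithelium of the RPE.

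The samples carried the markers of the labelled tissue, with some from its neighbours. The 8 RPE markers (such as Rpe65 and Rlbp1) summed to between 68821 and 120377 CPM (counts relative to library size, scaled for composition) across the libraries. Their levels were uneven: mean Rgr was 62287 CPM in the controls and 59020 CPM after laser, but mean Best1 was 1.20 and 0.706 CPM. All 10 of 10 fibroblast markers were measured, with summed levels of 37.7 to 162 CPM in the naïve controls and 73.3 to 227 CPM in the laser treated group. The 7 neural retina markers still summed to between 3540 and 20010 CPM. Of the 3 corneal markers, Kera was not in the table, and Krt12 and Aldh3a1 together ranged from 2.17 to 214 CPM. Total counts per library were between 25700881 and 38755994.

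The genes lie in 3 groups of neighbours and 1 lone locus on the mouse genome (GRCm38, GENCODE M21 gene spans). Dcn (chr10:97479609-97518143) and Lum (chr10:97565128-97572703) follow each other on the plus strand. Aspn (chr13:49544443-49567565), Omd (chr13:49582462-49592822) and Ogn (chr13:49608046-49624501) form a run on the plus strand, while Prelp (chr1:133910304-133921414) and Fmod (chr1:134037254-134048277) sit on opposite strands of chromosome 1 and Bgn lies alone on the X chromosome (chrX:73483602-73495933, plus strand). Exonic GC content separates them into a low group, with Aspn at 34.3%, Omd at 36.1%, Ogn at 36.3%, Dcn at 37.4% and Lum at 41.9%, and a higher group, with Bgn at 51.2%, Fmod at 53.7% and Prelp at 53.8%.

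The promoter stretches of Prelp, Fmod and Ogn are shown because these were the members with the smallest p-values between the groups, and that of Aspn because it is the neighbour of Ogn. They are the letters directly upstream of the RefSeq transcription start on GRCm38.p6, read 5′ to 3′ on the gene's strand at chr1:133921415-133921651 (minus strand) for Prelp, chr1:134037004-134037253 (plus) for Fmod, chr13:49607765-49608014 (plus) for Ogn and chr13:49544193-49544442 (plus) for Aspn. Capitals mark matches to the TATA box letters TATAAA on either strand.
Prelp: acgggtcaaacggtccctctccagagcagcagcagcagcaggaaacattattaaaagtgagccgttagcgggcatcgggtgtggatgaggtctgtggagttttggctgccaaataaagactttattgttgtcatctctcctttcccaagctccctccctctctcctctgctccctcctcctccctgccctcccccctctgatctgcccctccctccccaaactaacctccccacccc
Fmod: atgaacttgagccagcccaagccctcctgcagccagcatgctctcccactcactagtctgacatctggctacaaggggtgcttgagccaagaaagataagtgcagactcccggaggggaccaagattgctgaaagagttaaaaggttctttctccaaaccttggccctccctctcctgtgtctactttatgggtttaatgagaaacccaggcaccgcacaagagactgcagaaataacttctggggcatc
Ogn: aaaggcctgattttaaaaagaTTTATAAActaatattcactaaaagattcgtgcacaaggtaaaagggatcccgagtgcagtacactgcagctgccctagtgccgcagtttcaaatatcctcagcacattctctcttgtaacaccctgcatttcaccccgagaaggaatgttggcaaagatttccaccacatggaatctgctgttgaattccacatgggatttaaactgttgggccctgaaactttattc
Aspn: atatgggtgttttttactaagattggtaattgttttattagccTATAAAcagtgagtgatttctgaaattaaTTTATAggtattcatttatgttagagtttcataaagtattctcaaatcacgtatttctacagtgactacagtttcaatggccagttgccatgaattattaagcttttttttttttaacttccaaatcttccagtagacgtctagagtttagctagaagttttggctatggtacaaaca
These letter patterns were searched on both strands of the 6 members in the RefSeq promoter table (Bgn, Fmod, Ogn, Prelp, Aspn and Omd): TATAAA, the AP-1 site TGANTCA, the GC box GGGCGG and the Smad element CAGACA. The TATA box letters were found in Ogn, where the strands match at overlapping letters, and at 2 separate places in Aspn, against 12.4% of 32851 promoters of 250 bases. In both windows the matches lie toward the upstream end, away from the transcription start. The GC box was found 3 times in Bgn, the last pair overlapping, against 32.7% of promoters. The AP-1 and Smad patterns matched in none of the 6, with 6.75% and 17.1% of promoters holding them. The letters are a description of these windows only.

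Per length of exon, decorin and osteoglycin transcripts led the family. With the exons of all annotated transcripts merged, the mean level over the 11 libraries was 69.5 ± 21.3 (SD) for Ogn in reads per kilobase and CPM and 34.5 ± 17.9 for Dcn, followed by Lum at 14.6 ± 8.94, Fmod at 13.5 ± 5.21, Prelp at 7.05 ± 4.34, Bgn at 4.59 ± 1.96, Omd at 1.36 ± 1.92 and Aspn at 0.986 ± 1.17. Neighbours in this order that did not separate across libraries were Lum and Fmod, where Lum was the higher in 6 of 11 libraries, Prelp and Bgn (Prelp higher in 7) and Omd and Aspn (Omd higher in 6). The order of the leading pair, and that of Prelp and Bgn, depended on the length used. Ogn was above Dcn in 11 of 11 libraries on the merged exon length of 5838 bp for Dcn, but with the main Dcn transcript of 1758 bp Dcn was the higher in 7 of 11 libraries, at 115 ± 59.6 against 69.5 ± 21.3. The TPM of the assembled transcripts (a share per length within each library) gave the same 7 of 11, with means of 336 ± 169 for Dcn and 208 ± 46.7 for Ogn. With the main Bgn transcript of 2419 bp, Bgn was above Prelp in 10 of 11 libraries, at 11.6 against 7.05. On TPM Bgn was above Prelp in 11 of 11, at 37.6 against 14.5.

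Summed over the 8 genes, normalised counts ranged from 308 to 860 CPM in the naïve controls (median 484) and from 266 to 647 CPM in the laser treated libraries (median 506). The make-up of that sum varied more between libraries than between groups for decorin, which held 36.3% ± 11.6 (SD, n = 6) in the controls and 36.5% ± 10.6 (n = 5) after laser. Ogn held 40.7% ± 12.5 in the controls and 31.4% ± 11.3 after laser, and Fmod held 6.71% ± 1.86 and 12.0% ± 5.66. In 2 libraries with low Dcn, C3 and L3, decorin held 17.8% and 21.4% of the sum.

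**Figure D1:**
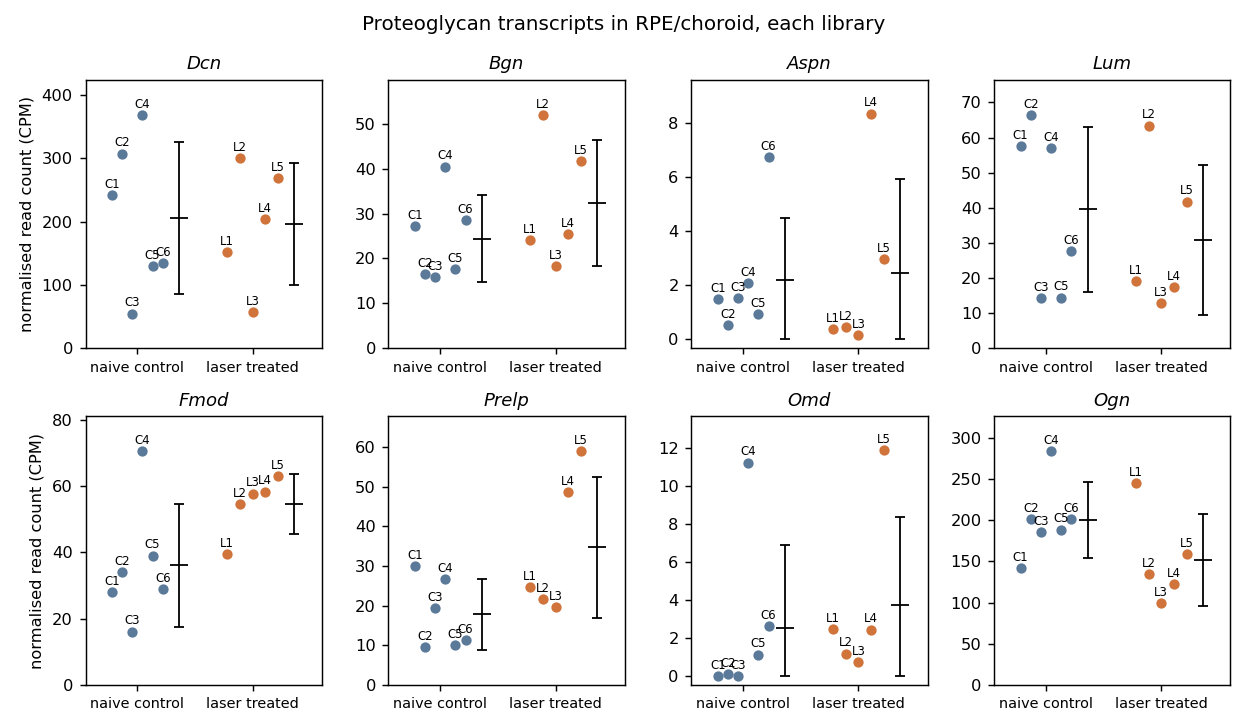
Normalised read count (CPM, vertical axis, a separate scale for each gene) in each library of the naïve control (C1 to C6) and laser treated (L1 to L5) groups, with the mean and SD as black bars cut at 0. The groups overlap for each of the 8 genes, and the Fmod values of 5 laser treated libraries lie between 39.5 and 62.8 CPM, above the control median of 31.4 CPM.

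The assembled transcripts of each library gave a depth for each exon, as far as an exon was assembled. Each assembled transcript had 1 exon, and an exon without one may still have reads: Aspn was listed at 0 TPM in C2, L1, L2 and L3, where 13, 11, 16 and 5 reads were counted. In the main transcripts, 20 exons were under 200 bp, and none of these had assembled depth in all 11 libraries while 13 had none in any library. Of the 24 exons of 200 bp or more, 15 had depth in all libraries. The last, long exons carried the most depth in Dcn (608 ± 329 reads per base, SD, n = 11), Bgn (89.7 ± 42.7), Lum (116 ± 67.3), Fmod (99.9 ± 41.3) and Prelp (37.7 ± 25.1), whereas in Ogn the inner exon 5 of 203 bp reached 377 ± 119 beside 293 ± 102 in its last exon. The first exon of Lum, at 758 bp, was near 0 (0.439 ± 0.992), and that of Fmod, at 329 bp, had no depth in any library. The TPM values used as an alternative rest on these exons.

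**Figure D2:**
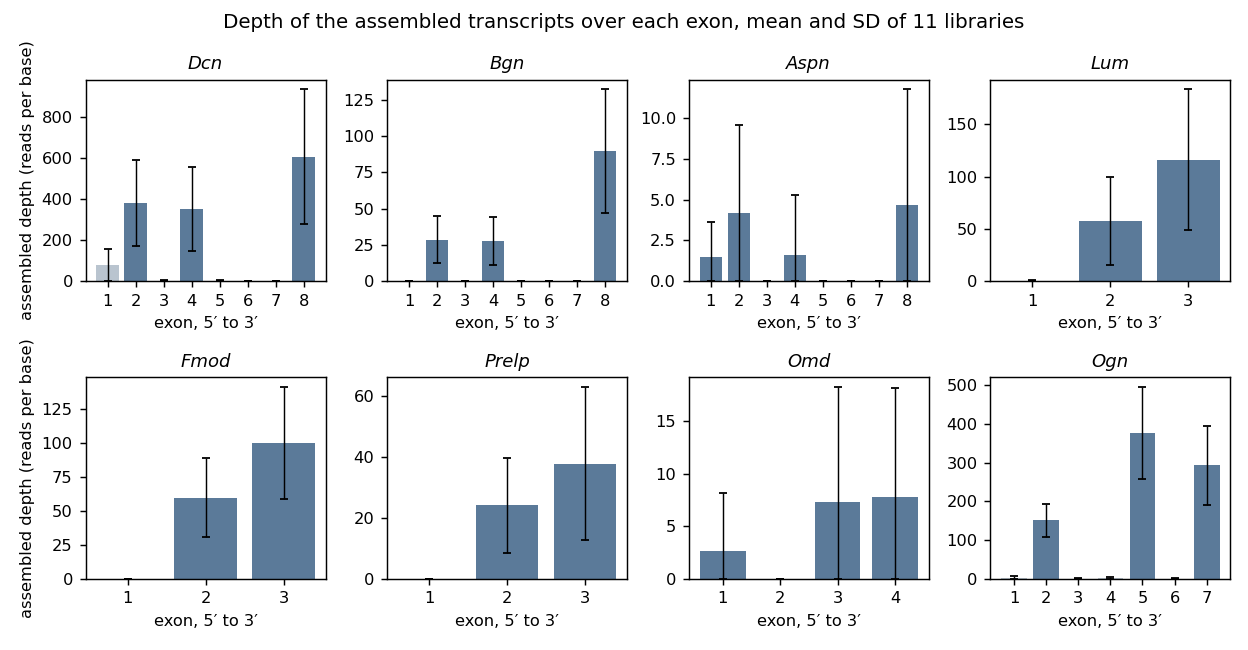
Assembled depth (reads per base, vertical axis) over each exon of the main annotated transcript, numbered 5′ to 3′ (horizontal axis). Bars are means of 11 libraries with the SD, lower ends cut at 0, and light bars mark exons under 200 bp, among which exon 1 of Dcn (78.5 reads per base) was the one with clear depth.

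Laser treated and naïve control samples were compared to ask whether matrix proteoglycan transcripts differed 3 months after treatment. No member passed an adjusted p of 0.05 in edgeR's quasi-likelihood test, where 0 of 14602 genes did (0%), nor in DESeq2, which called 3.44% of all genes and gave no adjusted p for Aspn and Omd. At an unadjusted p under 0.05 the count was 1 of 8 (Prelp), against 15.9% of all genes tested (8.24% higher and 7.68% lower in the laser treated group). The control and laser treated values overlapped for 8 of 8 members, and 2.26% of all genes had groups that did not overlap. The median log2 fold change of the members was 0.28, with 5 of 8 above 0, beside −0.02 and 48.5% over all genes. In bulk tissue, fewer cells of a type and less RNA per cell cannot be told apart.

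**Figure D3:**
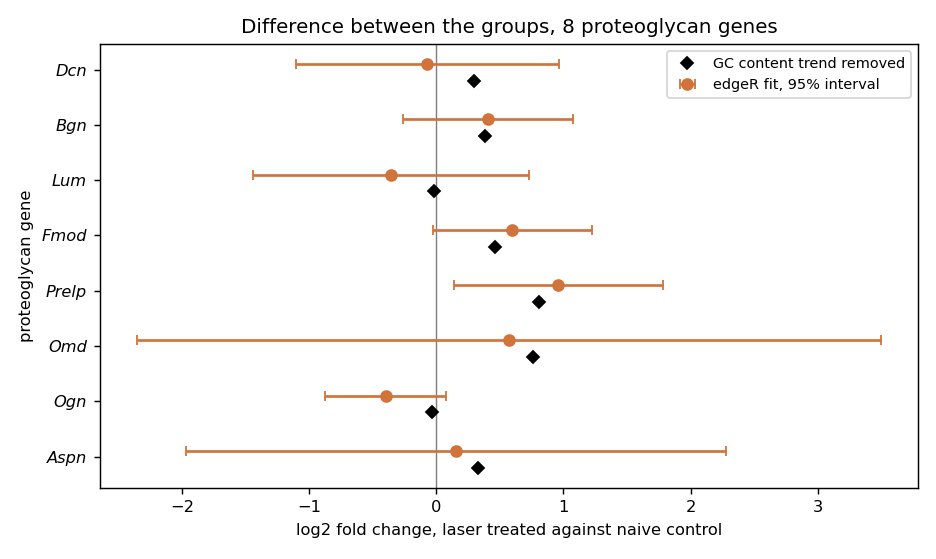
Log2 fold change between the groups, positive where laser treated libraries are higher (horizontal axis), for the 8 genes, with the edgeR estimate and its 95% interval in orange and the estimate after removal of the trend with GC content as black diamonds. The interval of Prelp (0.14 to 1.78) lies above 0, those of the other 7 genes include 0, and the diamonds of Dcn, Lum and Ogn lie to the right of their estimates.

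Decorin, the collagen-binding proteoglycan that also restrains growth factors and binds the receptor Met, had a 6.75-fold range between libraries. Dcn ranged from 54.7 to 369 CPM in the naïve controls, with a median of 188. It was at 151, 301, 57.0, 203 and 268 CPM in L1 to L5. The lowest control (C3) and the lowest laser treated library (L3) were close to each other, the other 9 libraries were at 130 CPM or more, and no laser treated value lay outside the control range. The log2 fold change was −0.07 ± 0.48 (SE), with an interval of −1.11 to 0.96 and an adjusted p of 0.964, so the spread between libraries left room for a value 2-fold lower and for one close to 2-fold higher. Without C3 and L3 it was −0.03.

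Biglycan, the relative of decorin that can signal through Toll-like receptors, ranged from 15.9 to 40.5 CPM in the controls, with a median of 22.4. Bgn was at 24.1, 52.1, 18.4, 25.5 and 41.8 CPM in L1 to L5. L2 and L5 lay above the highest control (C4), and L1, L3 and L4 lay within the control range. Bgn had a log2 fold change of 0.41 ± 0.31 (adjusted p 0.581), which ranged from 0.17 without L2 to 0.60 without C4.

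Asporin, the family member with an aspartate-rich end in place of a sugar chain, was among the least abundant. Aspn ranged from 0.527 to 6.74 CPM in the controls, with a median of 1.49. In L1 to L5 it was at 0.356, 0.435, 0.143, 8.37 and 2.98 CPM. L1, L2 and L3 were below the lowest control and L4 was above the highest, which was C6. Aspn had a log2 fold change of 0.15 ± 0.99 (adjusted p 0.963), and of −1.17 without L4, and the difference in mean log2 CPM was −0.70.

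Lumican, the keratan sulfate proteoglycan known for keeping corneal collagen regular, ranged from 14.3 to 66.5 CPM in the controls, with a median of 42.3. Lum was at 19.1, 63.4, 12.9, 17.3 and 41.7 CPM in L1 to L5. All but L2 were below the control median, and L3 was just under the lowest control, C3. Lum had a log2 fold change of −0.36 ± 0.50 (adjusted p 0.809), which ranged from −0.80 without L2 to −0.16 without L3 and −0.14 without C2.

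Fibromodulin, which shares its collagen site with lumican and is abundant in tendon and sclera, ranged from 16.02 to 70.4 CPM in the controls, with a median of 31.4. Fmod was at 39.5, 54.6, 57.7, 58.3 and 62.8 CPM in L1 to L5. The laser treated libraries lay in a narrow band, above 5 of the 6 controls, and C4 was the highest of all. The log2 fold change was 0.60 ± 0.29, with an unadjusted p of 0.0594 and an adjusted p of 0.336 in edgeR, and an exact two-sided permutation test over libraries gave p = 0.0541. Without C4 the value was 0.89 (unadjusted p 0.00178, adjusted p 0.226), and without C3 it was 0.43 (unadjusted p 0.113).

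Prelp, a basic member of the family that ties basement membrane to the collagen beneath it, had the largest log2 fold change of the 8 members. It ranged from 9.45 to 30.0 CPM in the controls, with a median of 15.4. In L1 to L5 it was at 24.6, 21.7, 19.6, 48.6 and 58.9 CPM. All 5 values were above the control median, L4 and L5 were above the highest control (C1), and L1 to L3 lay within the control range. Prelp had a log2 fold change of 0.96 ± 0.38, with an unadjusted p of 0.0255 and an adjusted p of 0.248 in edgeR, and the exact permutation test gave p = 0.0628. The unadjusted p was above 0.05 when any of C2, C5, C6, L4 or L5 was left out, with log2 fold changes between 0.68 (without L5) and 0.85 (without C6).

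Osteomodulin, a keratan sulfate proteoglycan of bone and other mineralised matrix, was scarce and uneven. Omd had 0 counts in C1 and C3, which allows at most 0.0892 and 0.0979 CPM (3 counts), and the controls reached 11.2 CPM in C4, with a median of 0.596. In L1 to L5 it was at 2.46, 1.17, 0.713, 2.44 and 11.9 CPM. C4 and L5 stood apart from the other 9 libraries, none of which passed 2.63 CPM. Omd had a log2 fold change of 0.57 ± 1.36 (adjusted p 0.894), 2.29 without C4 and −0.56 without L5. The libraries with high Omd were also those with high Aldh3a1, a crystallin-like enzyme of the cornea, at 173 CPM in C4 and 203 CPM in L5, against 1.52 to 102 CPM in the others. Krt12, a corneal epithelial keratin, was at 40.4 CPM in C4 but at 1.11 CPM in L5. In C6, Aldh3a1 was at 102 CPM with Omd at 2.63 CPM. Tnmd, a tendon marker, was also highest in C4 and L5, at 6.74 and 7.87 CPM, against 0 to 5.19 CPM in the others. Chad, from the same marker list, was at 9.20 CPM in L5 but at 2.62 CPM in C4. The part of corneal or other adjoining tissue in the Omd values was not tested.

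**Figure D4:**
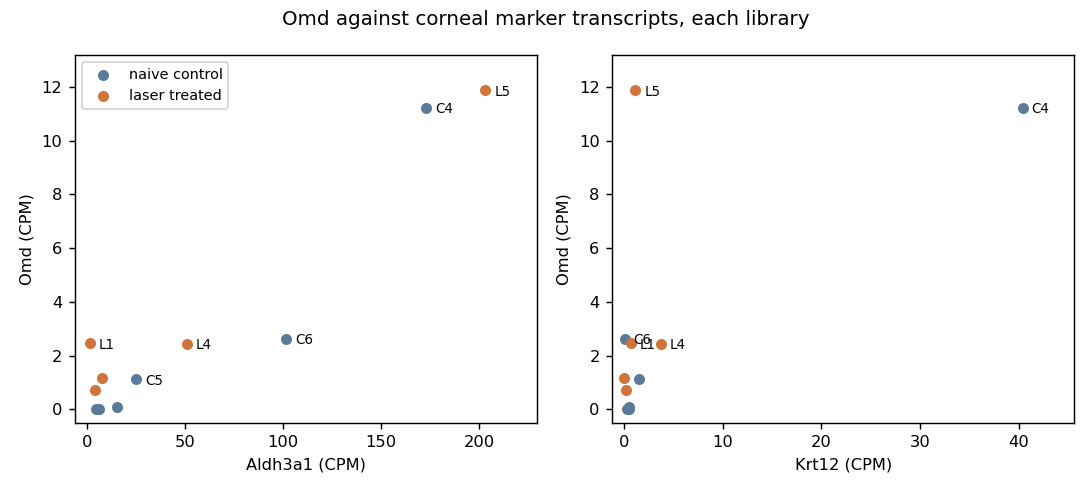
Omd (CPM, vertical axis) against the corneal markers Aldh3a1 (left) and Krt12 (right, both CPM, horizontal axis) in each of 11 libraries. C4 and L5 hold the highest Omd (11.2 and 11.9 CPM) and the highest Aldh3a1 (173 and 203 CPM), while Krt12 is at 40.4 CPM in C4 and at 3.70 CPM or less in the other libraries.

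Osteoglycin, also called mimecan, was the member with the least spread between libraries, with a coefficient of variation of 30.6% over the 11 libraries. Ogn ranged from 141 to 284 CPM in the controls, with a median of 195. In L1 to L5 it was at 245, 134, 99.4, 122 and 158 CPM. L2, L3 and L4 were below the lowest control (C1), L5 was below 5 of the 6 controls, and L1 was above all controls but C4. The log2 fold change was −0.40 ± 0.22, with an unadjusted p of 0.0925 and an adjusted p of 0.405 in edgeR, and the exact permutation test gave p = 0.110. Without L1 it was −0.64 (unadjusted p 0.00478, adjusted p 0.164), but it was −0.28 without L3 (unadjusted p 0.223), −0.29 without C4 (unadjusted p 0.207) and −0.17 on TPM.

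The fold changes of all genes moved with GC content, and the 6 abundant members split into a low and a high group on both measures. Over all genes with a GC value the median log2 fold change was −0.37 for the 806 genes under 40% GC and 0.28 for the 3300 genes above 55%. Among the members, Prelp, Fmod and Bgn had the higher GC content and fold changes of 0.41 to 0.96, while Dcn, Lum and Ogn had low GC content and values of −0.40 to −0.07. The scarce Aspn and Omd had low GC content and values of 0.15 and 0.57, with wide errors. With the trend removed, Ogn was at −0.03 ± 0.25, Lum at −0.02 ± 0.54 and Dcn at 0.30 ± 0.53. Prelp remained at 0.80 ± 0.36 (unadjusted p 0.0429, adjusted p 0.674) and Fmod at 0.46 ± 0.28 (adjusted p 0.722).

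The transcript files carry a header label, R1 or R2, whose meaning is not given, with 3 control and 2 laser treated libraries under R1 and 3 of each under R2. Prelp was higher in the laser treated group by 0.39 in mean log2 CPM within R1 and by 1.40 within R2. Fmod was higher by 0.90 and 0.47. For Ogn the difference was 0.06 within R1 and −0.83 within R2, and for Dcn it was 0.42 and −0.35, so the sign of these did not hold within both labels. Bgn was at 0.88 within R1 and −0.02 within R2, and Lum was negative in both (−0.12 and −0.43). With the label as a covariate, 0 members passed an adjusted p of 0.05.

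Members were compared with each other across the 11 libraries. Dcn and Lum, the neighbours on chromosome 10, had the highest correlation of log2 CPM among the 28 pairs, with Pearson's r = 0.85 (permutation p = 0.00071, adjusted p 0.0199) and Spearman's rho = 0.88 (adjusted p 0.0218). Without the 2 libraries farthest from the Dcn median (C3 and L3) r was 0.85, with group means removed it was 0.87 (adjusted p 0.0151), and on TPM it was 0.75. No other pair passed an adjusted p of 0.05. The next was Fmod and Omd, on different chromosomes (r = 0.77, adjusted p 0.0715). For this pair r was 0.59 without C3 and C4, the libraries farthest from the Fmod median, and 0.71 on TPM. Omd had 0 counts in C1 and C3 and 2 in C2, where its log2 CPM rests largely on the added prior count. Dcn and Bgn followed (r = 0.65, adjusted p 0.286), with r at 0.48 without C3 and L3. Of the 28 pairs, 25 had r above 0, with a median of 0.27. The neighbours on chromosome 13 had low values, at 0.14 for Ogn and Aspn, 0.23 for Ogn and Omd and 0.29 for Aspn and Omd, and Fmod and Prelp on chromosome 1 had 0.45. Shared library composition and depth enter each of these values.

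**Figure D5:**
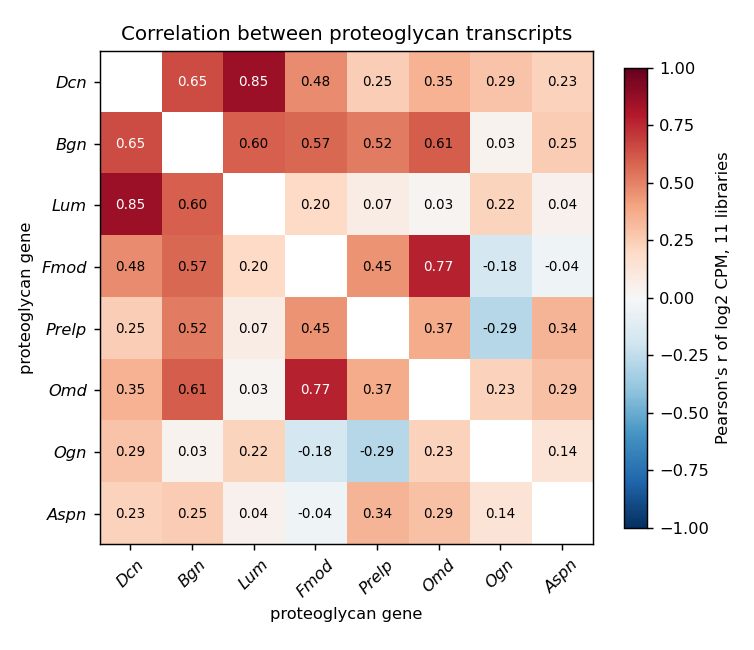
Pearson's r of log2 CPM over 11 libraries for each pair of the 8 genes (rows and columns), on a colour scale from −1 to 1. Dcn and Lum (0.85) and Fmod and Omd (0.77) are the darkest cells, and Ogn has values between −0.29 and 0.29 with the others. For Fmod and Omd r was 0.59 without C3 and C4.

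The genes of the whole table whose log2 CPM followed each member most closely over the 11 libraries were picked as the highest of 14602 values and are given as descriptions. Dcn was followed by Sepp1 (selenoprotein P, r = 0.95) and Heyl (a Notch target of mural cells, 0.95), and Lum by She (0.94) and Cd34 (a surface protein of endothelium and stromal fibroblasts, 0.89). Bgn was followed by Lamc3 (a laminin chain, 0.92) and Spnb3 (a spectrin, 0.91), and Fmod by Wnt5b (a Wnt ligand, 0.95) and Smtn (smoothelin of smooth muscle, 0.92). Prelp was followed by Olfml3 (a secreted matrix protein, 0.91) and Zfp395 (0.89). The partners of Ogn, Sorbs2 (0.93) and Bcl2 (0.92), dropped to 0.35 and 0.39 on TPM. Aspn was followed by Chac1 (0.91) and Cldn23 (0.90), and Omd by Sept9 (0.94) and Gpr125 (0.93).

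Other genes of the family and its pathway were read from lists of named genes, and 0 of their genes passed an adjusted p of 0.05 in edgeR with all 11 libraries. Of 10 further family genes, 6 were measured (Kera, Nyx, Tsku and Podnl1 were not in the table) and 5 of the 6 had a log2 fold change above 0. Chadl, a chondroadherin-like collagen-binding protein, was at between 22.7 and 46.3 CPM in the controls and between 44.1 and 53.9 CPM after laser, a log2 fold change of 0.61 ± 0.18 (unadjusted p 0.00373, adjusted p 0.174 in edgeR, 0.0369 in DESeq2 and 0.0387 in edgeR without C6 and L5). DESeq2 called 3.44% of all genes, and the fit without C6 and L5, which was not planned in advance, called 389 genes. The TPM difference of Chadl was 0.14. Optc, the opticin of vitreous and ciliary body, was at 10.7 CPM in C4, 13.8 in L3 and 23.4 in L5 and at 0 in C1, C2 and L1 (log2 fold change 1.46 ± 1.51).

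All 14 collagens that pair with these proteoglycans in fibrils or filaments were measured, 13 of them with a log2 fold change above 0 and a median of 0.69, and 1 of 14 had an unadjusted p under 0.05, which 15.9% of all genes had. That gene, Col6a1 of collagen VI, the filament that biglycan and decorin bind, was at 4.65 ± 2.04 CPM in the controls and 9.87 ± 4.33 CPM after laser (log2 fold change 1.09 ± 0.41, adjusted p 0.235). Col11a2 was between 0.363 and 1.10 CPM in the controls and between 0 and 5.76 CPM after laser (1.99 ± 0.97, adjusted p 0.335). The exception, named after its values were seen, was Col6a3 at −2.75 ± 1.48 (unadjusted p 0.0842). It ranged from 0 to 13.4 CPM in the controls (mean 2.75 ± 5.30) and from 0.163 to 0.685 CPM after laser. Collagens were measured at low levels, with the 14 genes together between 35.2 and 123 CPM, and their median fold change was 0.42 with the GC trend removed. Markers of some other stromal and adjoining cells lay on the same side. Of the pericyte and smooth muscle markers, 7 of 7 had a log2 fold change above 0 (median 0.51). Their summed levels were 178 to 276 CPM in the controls and 207 to 333 CPM after laser, with Acta2 alone at means of 198 and 236 CPM. Endothelial markers were above 0 in 6 of 7 (median 0.17). Among fibroblast markers 8 of 10 were above 0 (median 0.42), with Col1a1, Col1a2 and Col3a1 also among the collagens. Cartilage or tendon markers were above 0 in 6 of 8 (median 0.38, with Acan and Cilp not in the table and Col2a1 also among the collagens). Their sums, 223 to 325 CPM in the controls and 279 to 350 CPM after laser, were mostly Sox9 (means of 244 and 280 CPM). Skeletal muscle markers were above 0 in 5 of 6 (median 0.46). Other lists did not. Neural retina markers were below 0 in 6 of 7 (median −0.24), blood markers in 3 of 3 (median −0.86) and corneal markers in 2 of 2 (median −1.35). Leptomeninges markers were below 0 in 3 of 5 (median −0.12), and 4 of 6 melanocyte markers were above 0 (median 0.06). Except for 1 leptomeninges marker, higher after laser, none of these markers had an unadjusted p under 0.05. Their part in the collagen values was not tested.

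Of the 20 measured enzymes of 22 that build the linker and the chondroitin or dermatan sulfate chains, 4 had an unadjusted p under 0.05, each higher in the laser treated group, where 8.24% of all genes were higher at that p. Chpf, a chondroitin polymerising factor, was at 53.7 ± 10.7 CPM and 76.5 ± 19.3 CPM (log2 fold change 0.51 ± 0.19, adjusted p 0.225), and Xylt2, which adds the first xylose, was at 26.2 ± 4.65 and 35.6 ± 6.33 CPM (0.44 ± 0.18, adjusted p 0.248). With the GC trend removed these were 0.28 and 0.20. Of 6 measured keratan sulfate enzymes, 1 had an unadjusted p under 0.05, which 15.9% of all genes had, namely B4galt1 (0.36 ± 0.17, adjusted p 0.308), and B4galt4 was at 0.10 ± 0.18.

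Of 7 measured proteases that cut these proteoglycans or their collagens, 2 had an unadjusted p under 0.05, both higher after laser (8.24% of all genes). Bmp1, the protease that trims the ends of biglycan and of procollagen, was at 8.59 ± 4.01 CPM in the controls and 16.3 ± 3.17 CPM after laser (log2 fold change 0.92 ± 0.33, adjusted p 0.214). Mmp2, a gelatinase, was at 3.97 ± 1.00 and 6.81 ± 2.13 CPM (0.78 ± 0.33, adjusted p 0.278). Of 15 measured receptors and bound growth factors, Met, a decorin receptor, was at 384 ± 60.6 and 301 ± 51.9 CPM (−0.35 ± 0.14, adjusted p 0.253, and −0.16 with the GC trend removed) and Pdgfb was at 1.29 ± 1.11 and 3.68 ± 1.84 CPM (1.51 ± 0.69, adjusted p 0.303).

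Among 3 measured large proteoglycans, Bcan, the brevican of neural matrix, was at 43.3 ± 10.5 CPM in the controls and 95.4 ± 77.4 CPM after laser (log2 fold change 1.14 ± 0.38, adjusted p 0.202 in edgeR and 0.0360 in DESeq2), with 231 CPM in L3 and 38.7 to 77.8 CPM in the other 4. Without L3 the log2 fold change was 0.51. With all libraries, DESeq2 called 3.44% of all genes. Agrn was at 0.14 ± 0.33. Of 5 measured Schwann cell markers, 3 had an unadjusted p under 0.05, each higher after laser (8.24% of all genes), and Mbp, a myelin protein, ranged from 24.3 to 165 CPM in the controls and from 30.1 to 566 CPM in the laser treated group. L3, with the highest Bcan, had 69.5 CPM of Mbp. The part of nerve in these values was not tested.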

How the data were processed

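RNA-seq of RPE/choroid covered 6 naïve control and 5 laser treated libraries, pre-amplified with a SmartSeq v4 kit and made with NexteraXT. The submitters' processing notes name STAR 2.5.3a, featureCounts 1.5.3, StringTie 1.3.3 and edgeR 3.22.3 with mm10/GRCm38, without roles or settings. The authors deposited raw counts of reads per gene, not normalized or pooled, which were the values tested. The authors' log2 fold changes, abundance, test score and p-value columns stand in the same table and were not used. The authors deposited per library the StringTie transcripts with coverage, FPKM and TPM, normalized within the library, and TPM and coverage were summed here over gene exons (FPKM was not used). The read length, strand setting and annotation of the counting are not given in the sources used here.

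GENCODE M21 entries were found for 13045 of the 14602 genes through the Ensembl identifier, for 1199 through a former symbol and for 10 through the current symbol. Groups were compared with edgeR 4.0.16 in R 4.3.3 (TMM, filterByExpr, which removed 0 genes, robust quasi-likelihood F test, Benjamini-Hochberg over all genes) and adjusted p under 0.05. The steps were tested on simulated data. Total counts were 25700881 to 38755994, the SE beside each fold change gives the precision, and the limit for a count of 0 (3 counts) covers counting error only. Alternatives were DESeq2 1.42.0, limma 3.58.1 (voom and TPM with pseudocounts of 1 and 0.1), another scaling, filter, covariate or block, removal of the GC trend (loess span 0.3), and omission of libraries. Correlations used log2 CPM (prior count 2) and 100000 permutations over libraries, with Benjamini-Hochberg adjustment over 28 pairs. Python 3.11.15 (pandas 2.3.3, scipy 1.17.1, numpy 2.4.6, matplotlib 3.10.9) made tables and figures. The text names the 8 members, from each pathway list the 2 genes with the smallest unadjusted p, and for each member the 2 genes with the highest r. Markers and the promoter of Aspn were named after their values were seen. Members and lists were chosen with earlier results of these data known.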

Additional observations from a re-analysis of the deposited data

Results flagged for a closer look

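In a test of the highest and lowest library of each group for a gap larger than Dixon's 95% limit, 5 of 44 groups were marked, and 3 of the 5 were among the 16 groups of the proteoglycan members. Chance marks about 1 in 20 only where values are normally distributed. The values here were CPM, with coefficients of variation of 141% for Omd and 118% for Aspn, so that rate is not a close guide. Omd stood at 11.2 CPM in C4, with the other controls between 0 and 2.63 CPM, and the log2 fold change was 2.29 without C4. Omd also stood at 11.9 CPM in L5, with the other laser treated libraries between 0.713 and 2.46 CPM, and the value was −0.56 (p 0.711 in edgeR) without L5. Aspn stood at 6.74 CPM in C6, with the other controls between 0.527 and 2.07 CPM, and the value was 0.91 (edgeR p 0.387) without C6.

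Among the pathway genes, Bcan, the brevican of neural matrix, stood at 231 CPM in L3, and its log2 fold change was 0.51 without that library (unadjusted edgeR p 0.0484). B4galt1, a galactosyltransferase of keratan sulfate synthesis, stood at 35.4 CPM in L5 below 57.3 to 65.4 CPM in the other laser treated libraries, and its log2 fold change was 0.49 without L5 (unadjusted edgeR p 0.00264).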

How the results depend on the processing

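The count of members past an adjusted p of 0.05 was 0 in edgeR and under all 25 alternatives, leaving out each library in turn included. The count at an unadjusted p under 0.05 was 1, and it was 2 with DESeq2, on TPM with a pseudocount of 0.1 or 1, with the header label as a covariate, with limma voom and with the replicate block, and 0 without C6 and L5 and with the 10 libraries of shared numbers and no block. Where these fits gave 2, the members were Prelp and Fmod, except with the replicate block. There they were Fmod and Omd (unadjusted edgeR p 0.0420 and 0.0442), with Prelp at 0.0704. Leaving out 1 library gave 0 (C2, C5, C6, L4 or L5) to 3 (L1), with 2 without C1 or C4. The number of all genes past an adjusted p of 0.05 was 0, and it was 502 with DESeq2, 389 without C6 and L5, 2 with at least 10 counts in every sample, 2 on TPM with either pseudocount, 1 with limma voom and 0 to 4 on leaving out 1 library (4 without L2). The median log2 fold change of the members was between −0.07 (without L5) and 0.51 (without L3) on leaving out 1 library and between 0.02 (without C6 and L5) and 0.48 otherwise.

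Prelp, Fmod and Bgn stayed above 0 and Ogn and Lum below 0 under each alternative fit. With the GC trend removed, Ogn and Lum were only at −0.03 and −0.02. Within a single header label, the sign differed for Ogn (0.06 within R1) and Bgn (−0.02 within R2). Dcn changed sign to 0.30 with the GC trend removed, to 0.061 and 0.060 on TPM with pseudocounts of 0.1 and 1 and to positive values without C2, C4, L1 or L3, its range on leaving out 1 library being −0.29 to 0.16. Aspn changed sign to −1.97 and −0.74 on TPM with pseudocounts of 0.1 and 1, −0.50 with the header label, −1.06 with limma voom, −0.33 with the replicate block, −0.70 as a difference of mean log2 CPM and to negative values without L4, C2 or C5, its range on leaving out 1 library being −1.17 to 0.91. Omd changed sign to −0.55 without C6 and L5 and −0.56 without L5, with 2.29 as the highest value on leaving out 1 library (C4), and was 3.76 with the replicate block. Agrn changed sign to −0.083 with the GC trend removed, −0.15 without C3 and L3 and −0.10 without L3 (at most 0.31 on leaving out 1 library). The cause of these changes was not tested.

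Replicate numbers were not used to pair the samples in the main fit, as the naïve controls were separate animals without laser. Same-numbered libraries correlated in their deviations at −0.01, 0.12, 0.28, −0.01 and −0.01, and 2 of the 5 correlated best with their own number. These values do not decide whether the numbers pair samples in another way. With the replicate block 0 members and 0 genes passed an adjusted p of 0.05.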
